A study of Rattus norvegicus with 8 samples.

Results

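RNA sequencing compared rat primordial germ cell-like cells that had been kept with gonadal somatic cells (the group PGCLC_d3ag3) with the embryonic stem cells (the group ESC) from which such cells were derived. All libraries with either label were used, which were 4 of the 8 libraries of the series, and the comparison ran over all 22228 genes named in the deposited table. Both groups carry the strain label Crlj:WI and the genotype label wild type. Embryonic stem cells grew on mouse embryonic fibroblast feeders in N2B27 medium with the MEK inhibitor PD0325901 at 1 µM, the GSK3 inhibitor CHIR99021 at 3 µM and rat LIF at 1000 U/ml. For PGCLC_d3ag3, stem cells were first aggregated for 60 hours as epiblast-like cells (EpiLC) with activin A at 20 ng/ml, bFGF at 12 ng/ml and 1% KSR. They were then held for 3 days with BMP4 at 500 ng/ml, rat LIF at 1000 U/ml, SCF at 100 ng/ml and EGF at 50 ng/ml (the group PGCLC_d3). Sorted day 3 cells were then mixed, 5000 to 50000, with gonadal somatic cells of E15.5 female rats, taken after depletion of the c-KIT-positive germ cells. These aggregates stayed for 3 days in N2B27 with 5% KSR, without the inhibitors or factors named above, before cells were sorted again. Both sorts took cells positive for Nanos3-T2A-tdTomato, a reporter that the wild type label does not mention. Nanos3 was therefore the sorting gene, and its own level is no finding.

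Primordial germ cells are the embryonic founders of sperm and eggs. After they enter the developing gonad they lose most DNA methylation, switch on a set of germline genes that includes Dazl and Ddx4, and keep several pluripotency genes in use. Naive embryonic stem cells, by contrast, are cultured counterparts of the early epiblast and depend in rats on inhibition of MEK and GSK3. The groups differ in cell state, culture medium, feeder or gonadal environment and sorting all at once, and the parts of these in any difference cannot be told apart.

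Values are given as TPM, a transcript abundance scaled for gene length and for the library's total, in the order ESC replicate 1, ESC replicate 2, PGCLC_d3ag3 replicate 1, PGCLC_d3ag3 replicate 2. Differences are PGCLC_d3ag3 minus ESC on the log2(TPM + 1) scale, which understates the change of genes with low values. Genes with at least 1 TPM in at least 2 of the 8 libraries were tested with limma, and "rose", "fell", "higher" and "lower" are used of genes with a Benjamini-Hochberg adjusted p under 0.05 over all 13571 tested genes. No list member that rose or fell had overlapping groups. The labels do not say whether the 2 replicates of a group were separate cultures. The p-values therefore reflect only how far these libraries spread, and that spread may be technical. In such bulk samples fewer cells of a type and less RNA per cell cannot be told apart.

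The libraries were close within a group, with a Pearson correlation across the tested genes of 0.997 between the ESC libraries and 0.9946 between the PGCLC_d3ag3 libraries, against 0.8491 to 0.8569 across groups. Genes are not independent replicates, so these are descriptions. TPM keeps no read totals, but the steps between the lowest values put the PGCLC_d3ag3 libraries at 2.17 and 2.38 times the depth of ESC replicate 1, and ESC replicate 2 at 1.37 times. The number of genes above 0 nevertheless spanned 15904 to 16330 in ESC and 15931 to 17129 in PGCLC_d3ag3.

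Expression differed widely between the states. Of 13571 tested genes 10488 (77.3%) were called, 5772 (42.5%) higher and 4716 (34.8%) lower in PGCLC_d3ag3, and 4661 (34.3%) were called and differed by at least 1 on the log2 scale. Both libraries of a group lay above both of the other in 11757 tested genes (86.6%). A called member of a list is therefore common, and list counts below are to be read against these shares and against a median difference of 0.09 over all tested genes.

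Markers of cells other than germ cells were checked before the other genes. The feeder list was higher in ESC as a sum: its members added up to 693 and 926 TPM in ESC against 70.9 and 81.7 TPM in PGCLC_d3ag3, and fibronectin (Fn1) alone was at 630, 869, 34.5 and 36.5. Of 15 tested fibroblast and feeder genes 7 fell and 3 rose, and the collagen genes Col1a1 (12.2, 8.85, 0.312 and 0.631) and Col3a1 (10.4, 8.92, 2.94 and 4.08) were among those that fell. The 3 that rose were Postn, Col5a1 and Dcn, and Dcn was at 0.261, 0.287, 1.75 and 0.962. The feeders were mouse cells, and what part their reads have in these values was not tested.

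Genes of the gonadal soma showed the opposite split. Of 20 tested members 11 rose and 6 fell, with a median difference of 0.72, but the members that rose stayed low. The defining soma factors Wt1 (listed at 0 in both ESC libraries, then 1.28 and 1.17), Gata4 (0, 0.0246, 4.7 and 5.12) and Nr5a1 (0.106, 0.13, 0.867 and 0.747) were present at a few TPM or less in PGCLC_d3ag3, and Foxl2, the granulosa cell factor, was at 0.289 and 0.461. The largest rises were of Irx3 and Gata4, at 3.00 and 2.54, followed by the retinoic acid synthase Aldh1a2 and by Fst. Fst encodes the activin inhibitor follistatin. At day 3, before mixing with gonadal cells, means were 24.1 TPM for Irx3, 2.6 for Gata4, 1.13 for Aldh1a2 and 4.9 for Fst. Means in PGCLC_d3ag3 were 7.41, 4.91, 9.19 and 4.13 TPM in the same order. The summed level of the list was lower in PGCLC_d3ag3, at 149 and 142 TPM against 457 and 438 TPM in ESC, and the keratin Krt19 made up most of the ESC sum, at 332, 299, 8.24 and 9.16. Among endothelial and blood genes 6 of 9 tested members rose and 3 fell. Their summed level was 75.7 and 75 TPM in ESC and 94.4 and 84.2 TPM in PGCLC_d3ag3. The haemoglobin genes Hba-a1 (0, 0.471, 44.1 and 35.5) and Hbb (0, 0, 4.81 and 11.3) were the largest rises. Alas2 rose as well (0.11, 0.283, 0.968 and 1.46). The falls included Gata1 (6.31, 5.41, 1.13 and 1.38) and Flt1 (1.06, 1.15, 0.433 and 0.325). Hba-a1 and Hba-a2 are near-identical copies, so their split is uncertain. The leukocyte gene Ptprc was at 0.0541 and 0, and the macrophage genes C1qa and C1qb were listed at 0 in all 4 libraries. The part of RNA from gonadal cells in the results was not tested.

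Y-linked genes bear on the female somatic cells, which carry none. Eif2s3y, the most abundant of them, was at 303, 283, 266 and 273 TPM, and the summed Y-linked level was 379 and 361 TPM in ESC and 308 and 318 TPM in PGCLC_d3ag3. Of 6 tested Y-linked genes Ddx3y, Kdm5d and Uty fell, Uba1y and Usp9y rose, and Eif2s3y was not called (adjusted p = 0.0565 from limma). The summed levels did not overlap between the groups, while single members moved in either direction and Eif2s3y was abundant in all 4 libraries. Day 3 cells, not yet mixed with female cells, had summed Y-linked levels of 297 and 307 TPM. Ddx3y had means of 51.8 TPM in ESC, 4.93 at day 3 and 18.5 in PGCLC_d3ag3. The part of female cells in these levels was not tested.

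**Figure D1:**
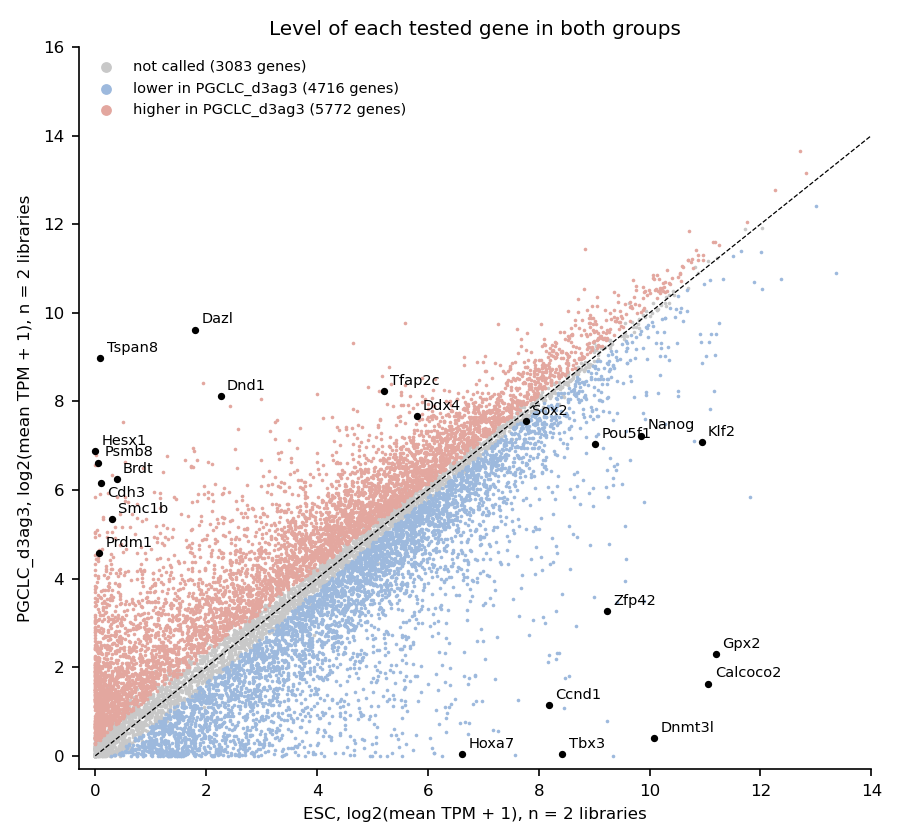
Each point is 1 of 13571 tested genes, with log2(mean TPM + 1) of the 2 ESC libraries on the x axis and of the 2 PGCLC_d3ag3 libraries on the y axis, and the dashed line marks equal levels. Dazl lies far above the line with an ESC mean of 2.48 TPM, and Ddx4 lies above it with an ESC mean of 54.7 TPM. Dnmt3l, Tbx3 and Hoxa7 lie along the bottom.

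The 12 largest rises were of genes with varied known roles. Tspan8, which encodes a tetraspanin membrane protein, was listed at 0 and at 0.131 TPM in ESC and reached 498 and 509. Dazl followed, and Cpeb1, which encodes a regulator of polyadenylation and translation in oocytes, was at 0.361, 0.48, 183 and 187. Hesx1, a homeobox gene best known from the pituitary, was listed at 0 in ESC and reached 109 and 126 in PGCLC_d3ag3, and Plac1, a gene known from the trophoblast, at 0 and then 92.4 and 93.7. No fold is given for genes listed at 0. These 5 genes had non-overlapping groups, and Tspan8, Cpeb1 and Plac1 were already high in day 3 cells (means of 390, 148 and 90.9 TPM), whereas Hesx1 had a mean of 7.06 and Dazl of 0.369 there. Among the others of the 12 largest rises, Foxr1 encodes a forkhead factor, Cdh3 P-cadherin, Esrp1 an epithelial splicing factor, Mogat2 an acyltransferase, Ap3b2 an adaptor subunit and Psmb8 an immunoproteasome subunit.

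The largest falls were of genes that were abundant in ESC and nearly gone in PGCLC_d3ag3. Dnmt3l, the cofactor of the de novo DNA methyltransferases, was at 1121, 1039, 0.455 and 0.178, a difference of -9.69 (SE 0.21, adjusted p = 3.37e-10 from limma). The autophagy receptor gene Calcoco2 was at 2016, 2256, 1.97 and 2.2, and the glutathione peroxidase gene Gpx2 at 2298, 2379, 4.37 and 3.44. Pramel6, a preimplantation gene of a large family whose members may share reads, was at 619 and 667 in ESC and listed at 0 in both PGCLC_d3ag3 libraries. The other 8 of the 12 largest falls were Dusp26, Tbx3, Foxe1, Ccnd1, Gja1, Nid1, Stmn2 and Fgf4, at -6.63 to -8.49. The highest ESC level belonged to the ferritin light chain gene Ftl1, at 10906, 10141, 1872 and 1926, and the heavy chain gene Fth1 fell from 5260 and 5396 to 1666 and 1821. The mitochondrially encoded COX3 had the highest level in PGCLC_d3ag3, at 12800 and 13115 against 6246 and 7205.

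**Figure D2:**
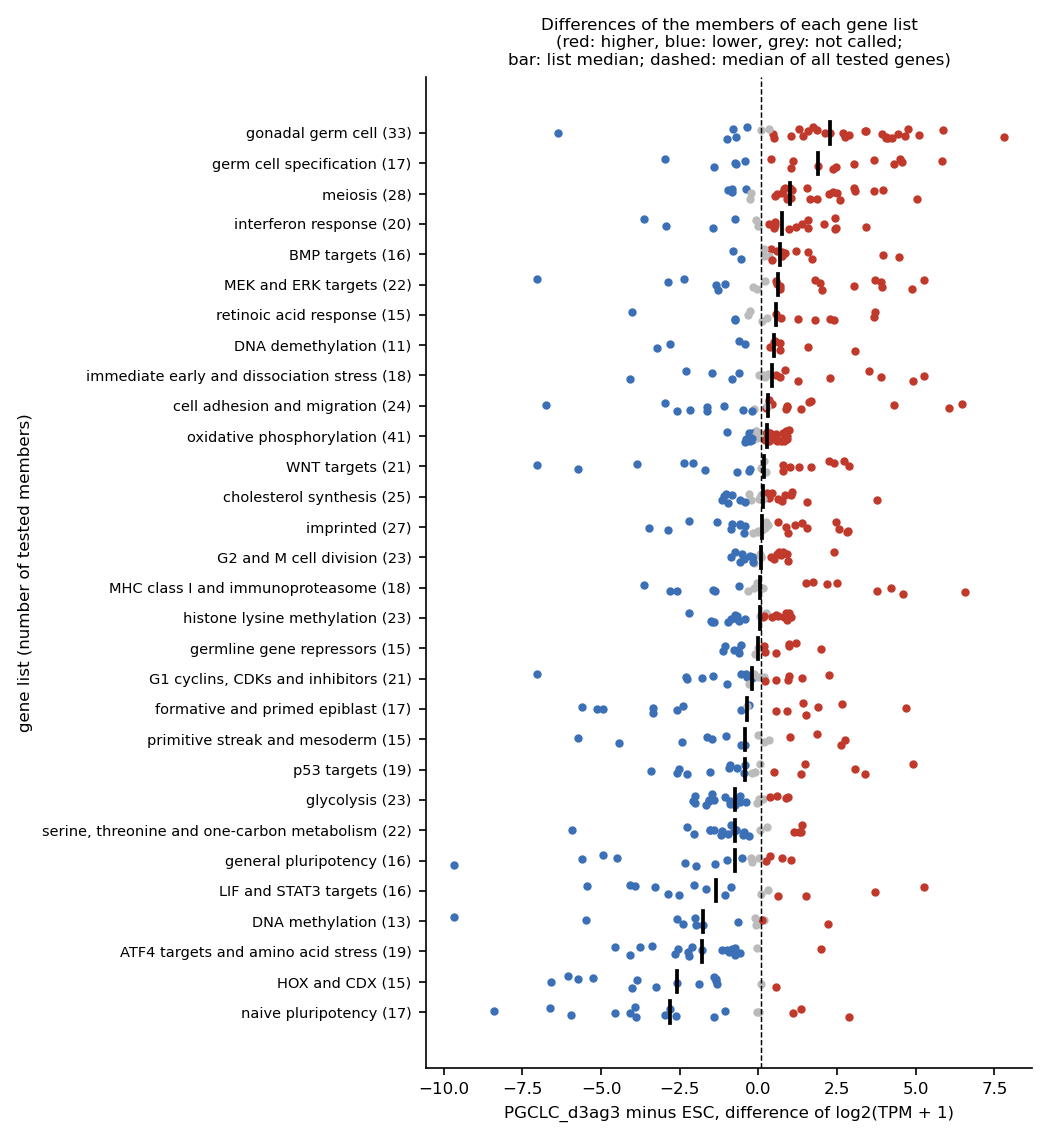
Each row is a gene list, leaving out Y-linked genes and the marker lists of other cells, and each point is a tested member, placed by PGCLC_d3ag3 minus ESC as a difference of log2(TPM + 1) and coloured by its call, with the list median as a bar and the median of all tested genes (0.09) as a dashed line. Gonadal germ cell genes have the highest median, 2.27, and naive pluripotency genes the lowest, -2.82.

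Germ cell specification genes were mostly higher, 12 of 17 tested members with 5 lower and a median of 1.88. Dnd1, which encodes an RNA-binding protein that germ cells need to survive, was at 3.71, 3.87, 277 and 275. Prdm1, which encodes the repressor BLIMP1 that starts the germ cell programme, was at 0.0331, 0.0725, 22.2 and 23.4, and its partner Tfap2c at 34.8, 37.2, 307 and 294. The third founding factor, Prdm14, moved least, from 16.3 and 17.5 to 39.7 and 35.4, and is also a gene of naive stem cells. Kit, the receptor for SCF, rose from 43.8 and 56.6 to 267 and 286, and Cxcr4, the receptor that guides migrating germ cells, from 0 in both libraries to 21.7 and 16.3. The sorting gene Nanos3 was at 0.385, 0.338, 17.2 and 15.6. Each of these genes had ESC libraries well below the PGCLC_d3ag3 libraries.

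Several specification genes were higher at day 3 than after aggregation. Day 3 cells had means of 373 TPM for Dnd1, 66.5 for Prdm1, 492 for Tfap2c, 86.0 for Prdm14 and 398 for Kit, each above both PGCLC_d3ag3 libraries. Sox17, an endoderm and germ cell factor, followed the same order, at 1.09 and 1.15 in ESC, a mean of 51.3 at day 3, and 9.41 and 10.7 after aggregation. Rhox9, an X-linked homeobox gene, went the other way, with a day 3 mean of 2.96 and 23.4 and 24.4 after aggregation, and the means of Alpl and Dppa3 at day 3, 62.5 and 382, also lay below both PGCLC_d3ag3 libraries. The 5 members that fell against ESC were Tfap2a, Dppa3, Alpl, Elavl2 and Fut4. Dppa3, a maternal factor shared by naive and germ cells, was at 1312, 1306, 467 and 510, so it remained abundant. Fut4 was below 1 TPM in these libraries, and its call was lost without ESC replicate 1 (adjusted p = 0.113) and without PGCLC_d3ag3 replicate 1 (adjusted p = 0.0646), both from limma.

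Gonadal germ cell genes are those that germ cells switch on around their arrival in the gonad, many of them guarded by promoter methylation before that. Of 36 listed genes 35 were in the table and 33 were tested, and 26 of these rose and 5 fell, with a median of 2.27. Dazl, which encodes an RNA-binding protein that commits cells to the germline, was at 2.22, 2.75, 763 and 806, a difference of 7.82 (SE 0.10, adjusted p = 3.31e-11 from limma). Ddx4, which encodes the germ cell helicase VASA, was already at 51.7 and 57.6 in ESC and rose to 204 and 201. Brdt, which encodes a bromodomain protein of spermatogenic cells, was at 0.29, 0.318, 76.4 and 72.7, and Tex101, which encodes a germ cell surface protein, at 2.01, 2.86, 118 and 114. Groups were separate for all 4 genes.

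Promoter sequences are shown for Dazl, which had the largest rise of the list, and for 4 genes picked for holding a motif described below. These are Smc1b and Sycp3 of the meiosis list and Brdt and Tdrd1 of the gonadal list, and they do not stand for their lists. Each run holds the 250 bases before the annotated start, 5′ to 3′ on the gene's strand, from RefSeq on build GRCr8. Capitals mark CACGTG, the E-box letters that MAX and MGA are known to bind, and TCCCGC, letters that E2F factors such as E2F6 are known to bind, searched on both strands (the reverse of the second reads GCGGGA). The windows lie at chr9:18193113-18193362 on the plus strand for Dazl, chr7:118122649-118122898 on the minus strand for Smc1b, chr14:2590761-2591010 on the minus strand for Brdt, chr1:265880775-265881024 on the plus strand for Tdrd1 and chr7:24761226-24761475 on the plus strand for Sycp3.
Dazl: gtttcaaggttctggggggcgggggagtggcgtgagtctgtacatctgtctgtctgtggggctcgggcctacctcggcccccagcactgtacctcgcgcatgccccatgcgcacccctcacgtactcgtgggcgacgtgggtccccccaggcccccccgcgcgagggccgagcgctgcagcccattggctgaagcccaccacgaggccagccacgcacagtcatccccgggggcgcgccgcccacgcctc
Smc1b: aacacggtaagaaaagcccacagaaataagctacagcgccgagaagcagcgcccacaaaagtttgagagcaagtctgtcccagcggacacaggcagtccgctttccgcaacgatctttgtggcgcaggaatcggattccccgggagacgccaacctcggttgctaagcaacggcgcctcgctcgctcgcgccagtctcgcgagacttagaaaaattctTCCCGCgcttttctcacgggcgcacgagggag
Brdt: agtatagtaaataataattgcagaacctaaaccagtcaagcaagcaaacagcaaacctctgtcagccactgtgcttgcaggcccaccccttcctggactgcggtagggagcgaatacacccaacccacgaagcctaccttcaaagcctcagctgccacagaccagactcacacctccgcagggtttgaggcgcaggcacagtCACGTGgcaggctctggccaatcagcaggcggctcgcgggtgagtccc
Tdrd1: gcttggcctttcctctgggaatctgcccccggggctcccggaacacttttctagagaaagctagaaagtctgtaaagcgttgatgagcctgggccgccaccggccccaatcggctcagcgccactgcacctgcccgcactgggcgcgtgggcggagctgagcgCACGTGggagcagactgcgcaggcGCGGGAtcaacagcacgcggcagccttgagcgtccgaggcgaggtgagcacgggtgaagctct
Sycp3: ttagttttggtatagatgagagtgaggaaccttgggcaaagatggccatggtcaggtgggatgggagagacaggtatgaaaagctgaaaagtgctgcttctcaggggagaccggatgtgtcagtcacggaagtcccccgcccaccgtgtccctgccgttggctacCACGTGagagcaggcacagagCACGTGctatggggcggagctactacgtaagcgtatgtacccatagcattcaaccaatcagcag

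The Dazl window held neither motif, and says nothing more than that. Smc1b had TCCCGC beginning 32 bases before its start, and Brdt had CACGTG 48 bases before. Tdrd1 had CACGTG 87 bases and GCGGGA 63 bases before, and Sycp3 had CACGTG both 85 and 64 bases before. The longer window of Sycp3, which adds 50 bases after the start, also held 1 TCCCGC match that is not within the printed bases. Of the gonadal germ cell list 33 of 36 members matched a RefSeq window of 300 bases (250 before and 50 after the start). In these, 13 of 33 (39.4%) held CACGTG and 9 (27.3%) held TCCCGC, beside 6.42% and 18.7% of all 33469 windows. Among the 10513 of 13571 tested genes that matched a window, 9.58% held CACGTG and 36.1% held TCCCGC. The list's share of TCCCGC thus lay between the shares of these backgrounds. Among the members that rose, 12 of 24 matched windows held CACGTG. The median number of CpG dinucleotides in a window was 15 in the list, 7 in all windows and 21 among the tested genes, and the part of CpG content in the motif shares was not tested. The background of tested genes is incomplete, since not all of them matched, and no conclusion is drawn from the comparison with it. For the meiosis list, where 25 of 34 genes matched, the search is void for the same reason. The matches in Smc1b and Sycp3 describe those windows alone. A match is a description of letters, not of a bound site.

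Genes of the piRNA pathway, in which small RNAs and PIWI proteins silence transposons in germ cells, were among the members that rose. Mael was at 1.31, 1.18, 58.9 and 52.0, the scaffold gene Tdrd1 at 0.15, 0.302, 31.7 and 32.2, and Asz1 at 6.04, 5.23, 67.7 and 69.7. The PIWI gene Piwil2 rose from 6.81 and 8.34 to 63.6 and 59.5, and the helicase gene Mov10l1 from 9.15 and 9.92 to 69.1 and 71.8. The other PIWI genes did not follow: Piwil1 fell by 0.99 and was below 2 TPM throughout these libraries, and Piwil4 was at 4.14, 3.99, 2.76 and 3.2. The call of Piwil4 as lower was lost with a pseudocount of 0.1 (-0.44, adjusted p = 0.141 from limma). It was also lost in a fit of only these 4 libraries (-0.35, adjusted p = 0.0718 from limma). Without ESC replicate 1, ESC replicate 2 or PGCLC_d3ag3 replicate 1 in turn, the difference was -0.33, -0.37 and -0.27. Nanos2, a regulator of male germ cells, and Nobox, a factor of oocytes, rose but stayed near 1 TPM, at 0.574, 0.779, 1.02 and 1.62 and at 0, 0, 0.315 and 0.543. The oocyte factor Figla reached 3.12 and 1.98.

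Further members with clear rises were Stk31 (8.07, 8.79, 138 and 145), the oocyte and spermatogonial factor Sohlh2 (2.35, 2.85, 57.4 and 60.8), Rbm46 (0, 0.0224, 19.8 and 21.9) and Boll (0.583, 0.711, 40.7 and 22.0). Boll belongs to the family of Dazl, and its PGCLC_d3ag3 libraries differed more than those of the other 3 genes. The 5 members that fell were Dppa5, Piwil1, Tdrd7, Tex19.1 and Piwil4. Dppa5 was at 204, 189, 1.53 and 1.26, and Tex19.1 at 319, 311, 184 and 198, so both were abundant in stem cells. At day 3 the list lay lower than in either group compared here: the median level over the 33 tested members was 2.01 and 2.28 TPM in ESC, 0.649 and 0.363 at day 3, and 18.7 and 20.5 in PGCLC_d3ag3.

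Meiosis genes rose as a majority but to modest levels. Of the 34 listed genes 28 were tested, 22 rose and 4 fell, with a median of 1.01. The cohesin genes Smc1b (0.265, 0.194, 42.5 and 36.6) and Rec8 (0.828, 1.17, 26.6 and 22.5) had among the largest rises. Genes of the synaptonemal complex, which joins paired chromosomes, followed: Sycp3 at 0.534, 1.95, 30.5 and 33.4, and Sycp1 at 0.712, 0.893, 13.1 and 15. The median level over the tested members was 1.85 and 2.05 TPM in ESC and 6.73 and 5.73 TPM in PGCLC_d3ag3, so these genes were low beside the gonadal germ cell genes.

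Genes that mark entry into meiosis itself were near the bottom of the range. Stra8, the gatekeeper of meiotic entry, was at 0.394, 0.805, 0.326 and 0.629 TPM, with overlapping groups, and was too low to be tested. Its partner Meiosin was at 0.0695, 0.228, 0.192 and 0.32, and the recombinase gene Dmc1 at 0.0483 and 0.257 in PGCLC_d3ag3. The recombination gene Spo11, in contrast, was listed at 0 in ESC and at 5.79 and 2.88 in PGCLC_d3ag3. The 4 members that fell were Tex15, Tex12, Terb1 and Syce2. Tex15 was at 99.4, 116, 60.3 and 48.8 and Tex12 at 135, 133, 79.5 and 69.4, so stem cells expressed both at high levels. Terb1 fell by 0.83, and by 0.55 without PGCLC_d3ag3 replicate 1. Syce2 (6.15, 5.70, 4.44 and 4.02) was no longer called without the filter on low values (-0.41, adjusted p = 0.0557 from limma). Without ESC replicate 1, ESC replicate 2 or PGCLC_d3ag3 replicate 2 in turn, its difference was -0.36, -0.45 and -0.35.

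**Figure D3:**
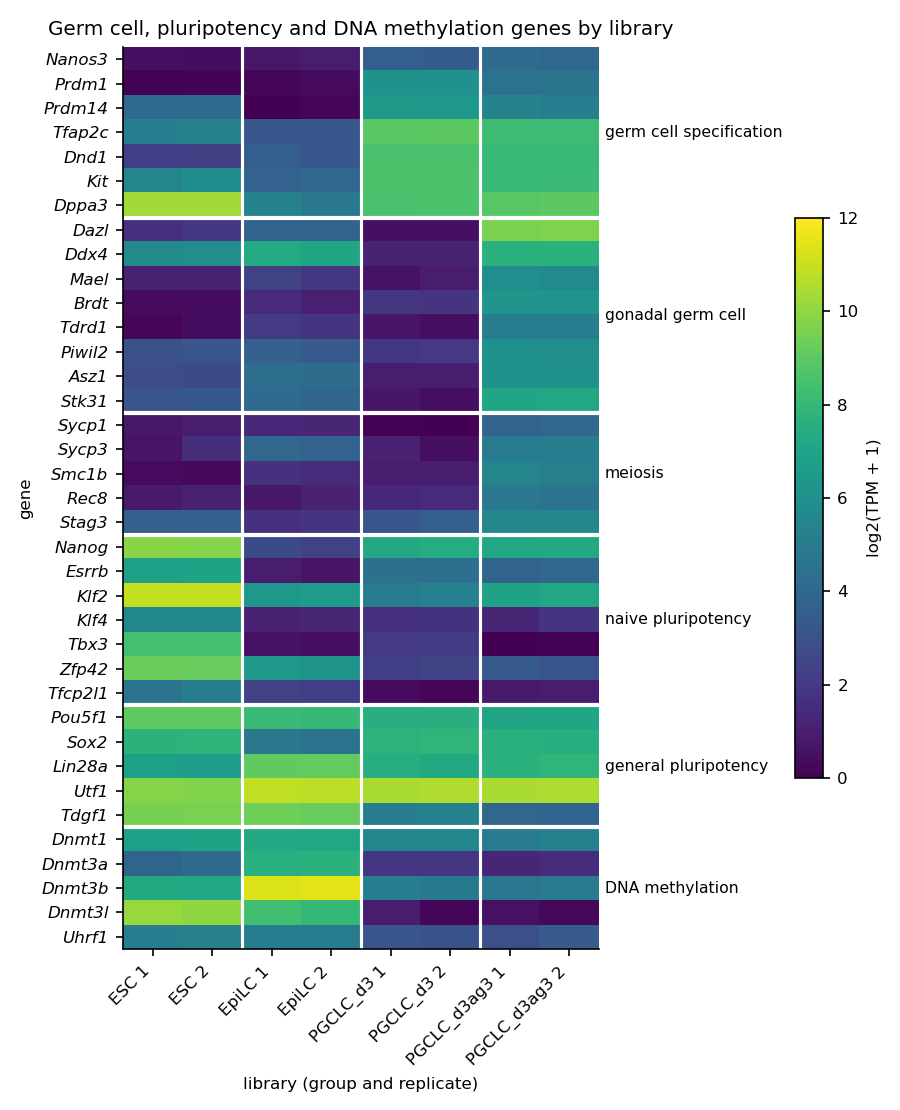
Rows are genes grouped by list, columns are all 8 libraries by group and replicate, and colour gives log2(TPM + 1) from 0 to 12. Dazl to Stk31 are brightest in the PGCLC_d3ag3 columns and dark at day 3, while Dnmt3l goes from 1121 and 1039 TPM in ESC to under 1 TPM in PGCLC_d3ag3.

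Naive pluripotency genes fell in the main, 12 of 17 tested members with 3 higher and a median of -2.82. Tbx3, a T-box factor that supports self-renewal, was at 336 and 350 in ESC and at 0 and 0.0563 in PGCLC_d3ag3, and the growth factor gene Fgf4 was at 138, 148, 0.867 and 0.132. Zfp42, which encodes REX1, fell from 614 and 583 to 9.42 and 7.74. Other members were lower but still expressed. Nanog was at 933, 912, 142 and 157, Klf2 at 1974, 1957, 120 and 147, and Esrrb, an orphan nuclear receptor, at 111, 125, 13.6 and 14.7. The naive genes thus ranged from near absence to over 100 TPM in the gonad-aggregated cells.

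The 3 members that rose were Prdm14, Nr0b1 and Nr5a2. Nr5a2, an orphan nuclear receptor that can drive Pou5f1, was at 2.96, 3.01, 24.7 and 32.7, and Nr0b1 was listed at 0 in ESC and at 1.36 and 1.75 in PGCLC_d3ag3. Klf5 was at 42.3, 46.2, 41.5 and 44.4 and Sall4 at 235, 223, 224 and 240, both with overlapping groups and no call. Spic, a factor marking the naive state, was at 24.9, 21.3, 0 and 0.0374.

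General pluripotency genes were split. Pou5f1, which encodes OCT4, was at 517, 516, 127 and 133, a difference of -1.98 (SE 0.058, adjusted p = 1.76e-09 from limma). Sox2 was at 211, 223, 195 and 182, with separate groups and a difference of -0.20 that missed the threshold (adjusted p = 0.0666). It was called lower in a fit of only these 4 libraries (-0.20, adjusted p = 0.0338) and after median-of-ratios rescaling (-0.27, adjusted p = 0.0229). Lin28a, which blocks let-7 maturation, rose from 111 and 99.1 to 200 and 229, and Utf1 from 899 and 834 to 1430 and 1490. Of 16 tested members 9 fell and 4 rose, and the rises also included Eras and Epcam, at 0.38 and 0.25. The NODAL co-receptor gene Tdgf1 (737, 765, 14.7 and 14.3) and Gdf3 (589, 641, 25.7 and 27.2) had, after Dnmt3l, and with Foxd3, the largest falls.

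Formative and primed epiblast genes, which mark the state between naive and germ cell fate, moved in both directions, 7 higher and 9 lower of 17 tested, with a median of -0.36. The median was -0.60 after quantile normalization. Otx2, a factor that opposes germ cell entry, rose by 2.66 from a low level, at 0.432, 0.363, 8.2 and 7.42. Its day 3 mean was 1.36 TPM and its EpiLC mean 74.2 TPM. Pou3f1 was at 1.08, 1.06, 4.22 and 4.88. Pim2 had the largest rise, from 25.8 and 22.2 to 585 and 692. The NODAL antagonist genes Lefty1 (700, 816, 21.6 and 19.9) and Lefty2 fell, as did Zic2, Zic5 and Foxd3, and Nodal itself was at 104, 110, 71.6 and 72.2. Fgf5, the classical primed marker, was at or near 0 in these 4 libraries, with 0.0367 TPM in PGCLC_d3ag3 replicate 2 as its highest value.

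Homeobox genes of the HOX clusters and the CDX family, which pattern the body axis, were expressed in these stem cells and nearly off in PGCLC_d3ag3. Of the 36 genes found 15 were tested, 13 of them fell and 1, Hoxb1, rose (0.851, 0.888, 2.01 and 1.48), with a median of -2.60. Hoxa7 was at 102, 92.4, 0 and 0.0556, Hoxa11 at 66.7, 69.5, 0 and 0.0898, and Hoxa9 at 36.6, 37.8, 0 and 0. Cdx2 went from 116 and 135 to 1.48 and 1.21, and Cdx4 was at 1.63, 1.41, 0.957 and 2.68 with no call. The 21 untested members were below 1 TPM in these 4 libraries, so expression in ESC was uneven over the clusters, with the HOXA genes at the top.

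DNA methylation genes were lower as a group, 8 of 13 tested members with 2 higher and a median of -1.76. Besides Dnmt3l, the de novo enzymes Dnmt3a (13.4, 16.3, 1.43 and 1.88) and Dnmt3b (155, 143, 25.1 and 30) fell. The maintenance enzyme Dnmt1 was at 109, 123, 30 and 37.1 and its recruiter Uhrf1 at 34.4, 36.2, 6.52 and 9.77. Zfp57, which protects imprints, was at 79.6, 78.0, 0.689 and 0.92, and its corepressor gene Trim28 at 2093, 2063, 487 and 559. Both the writing and the upkeep of methylation were therefore represented among the falls, while Dnmt1 stayed at 30 TPM or more. The 2 members that rose were Hells, a chromatin remodeller, at 39.7, 45.9, 195 and 204, and Mbd3, at 358, 349, 396 and 374. Mbd3 lost its call after median-of-ratios rescaling (0.06, adjusted p = 0.387 from limma). It also lost it in limma fits of only these 4 libraries (adjusted p = 0.121) and without a trend (adjusted p = 0.148). Without ESC replicate 1, ESC replicate 2 or PGCLC_d3ag3 replicate 1 in turn, the difference of Mbd3 was 0.14, 0.1 and 0.08.

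Demethylation genes did not move as one. All 3 TET dioxygenase genes, which oxidise methylcytosine, were lower: Tet1 at 25.8, 29.8, 17.3 and 18, Tet2 at 69.4, 78.8, 9.06 and 10.2, and Tet3 at 22.7, 26.7, 1.74 and 1.68. Tet1 fell by 0.62 and so had the smallest of the 3 falls. Of 11 tested members 7 rose and 4 fell, and the rises were of base excision genes such as Tdg (46.4, 50.7, 74.4 and 82.8) and Parp1 and of the stress-linked Gadd45a (26.4, 24.7, 218 and 222) and Gadd45b. The fourth fall was of the glycosylase gene Smug1, at -0.44.

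Repressors of germline genes in stem cells include a polycomb complex built on MGA, MAX and E2F6. Of 15 tested genes 7 rose and 6 fell, with a median of 0.00. The DNA-binding partners Mga (21.6, 29.3, 12.6 and 10.4) and Max (64.1, 68.3, 34.2 and 41.7) and the reader gene L3mbtl2 (119, 126, 51.3 and 60.2) fell. E2f6 rose from 30.8 and 34 to 48 and 49.1, as did Yaf2, Rnf2, Cbx3 and Ehmt2, and Pcgf6 was at 107, 99.6, 114 and 124. Members of the same complex thus moved in opposite directions.

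Histone lysine methylation genes were split likewise, 10 higher and 11 lower of 23, with a median of 0.05 that turned to -0.01 after median-of-ratios rescaling. The catalytic polycomb subunit Ezh2 (44.1, 42.7, 93.2 and 84.7) and its partner Eed (91.8, 88.3, 166 and 150) rose, while the alternative subunit Ezh1 (121, 128, 41.7 and 44.3) and the accessory Jarid2 fell. Among demethylases of H3K9 and H3K27, Kdm3a was at 247, 264, 53.3 and 55.5, Kdm3b at 34.2, 44, 13.9 and 14.1, and Kdm6a at 24.7, 27, 8.86 and 8.38. Setdb2 and Kdm2b were, with Ezh2 and Ehmt2, the largest rises, at 0.90 and 0.89.

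Signalling targets were listed because the media differed: stem cells were held with MEK and GSK3 inhibitors and LIF while the aggregates had none added. The part of the media in the levels of these genes was not tested. Of 22 tested MEK and ERK targets 13 rose and 6 fell, with a median of 0.63. The feedback genes Spry1 (1.05, 1.11, 62.3 and 59.1) and Dusp6 (4.31, 3.7, 67.5 and 62.6) rose, and so did Fos (10.7, 3.09, 263 and 262) and Egr2 (0.29, 0.165, 17.9 and 17.3). The ESC libraries differed for Fos and for Egr1, which was at 27.4, 5.16, 186 and 203, but both lay far below PGCLC_d3ag3. Other feedback genes went the other way: Spry2 was at 120, 114, 15.4 and 14.8, Spry4 at 11.2, 11, 3.32 and 4.59, and Etv4 at 78.9, 69.5, 26.6 and 30.3. Ccnd1, which encodes cyclin D1 and is a target of both ERK and WNT signals, was at 275, 306, 1.25 and 1.16, a difference of -7.04 (SE 0.088, adjusted p = 2.33e-11 from limma).

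WNT targets, which GSK3 inhibition raises, were evenly split, 9 higher and 9 lower of 21 tested, with a median of 0.19. Axin2, the common readout of the pathway, was at 13.5, 14.9, 3.25 and 4.15, and Cdx1 at 36.9, 34.2, 1.57 and 1.48. Against these, the feedback inhibitor genes Nkd1 (1.92, 1.75, 18.9 and 21), Dkk1 (0.0519, 0, 4.53 and 4.26) and Notum, the receptor gene Fzd7 and the effector gene Tcf7 (5.4, 5.35, 40.8 and 41.3) rose. Lef1 was at 64.3, 68.9, 50.4 and 57.3, a fall of 0.30, and Tbxt at 3.09, 3.6, 2.94 and 5.21 with no call.

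LIF and STAT3 genes were lower in the main, 10 of 16 tested with 4 higher and a median of -1.36. Stat3 itself was at 112, 113, 12.7 and 16.2, the receptor genes Lifr at 35.2, 44.1, 2.6 and 3.69 and Il6st at 124, 139, 29.9 and 32.1, and the feedback gene Socs3 at 180, 192, 30 and 33.3. Bcl3 had the largest fall, from 136 and 158 to 2.17 and 2.53. Signal-transducing parts of the pathway were lower, as were several of its targets. Socs1, by contrast, was at 11.8, 12.1, 158 and 175, and Socs2, Pim3 and Fos rose as well.

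BMP targets rose in 11 of 16 tested genes and fell in 2, with a median of 0.67. Smad6, an inhibitor induced by the pathway, was at 0.796, 0.786, 39.2 and 37.5, Id1 at 3.42, 2.33, 59 and 59, and Id3 at 341, 321, 761 and 756. Their day 3 means, in medium with BMP4, were 55.0, 298 and 873 TPM, above both PGCLC_d3ag3 libraries for each gene. The 2 falls were of Smad7 and of the ligand gene Bmp4, which was at 91.6, 99.6, 63.2 and 65.5. The mesoderm genes Hand1 and Gata3 were below 1 TPM in all 4 libraries.

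**Figure D4:**
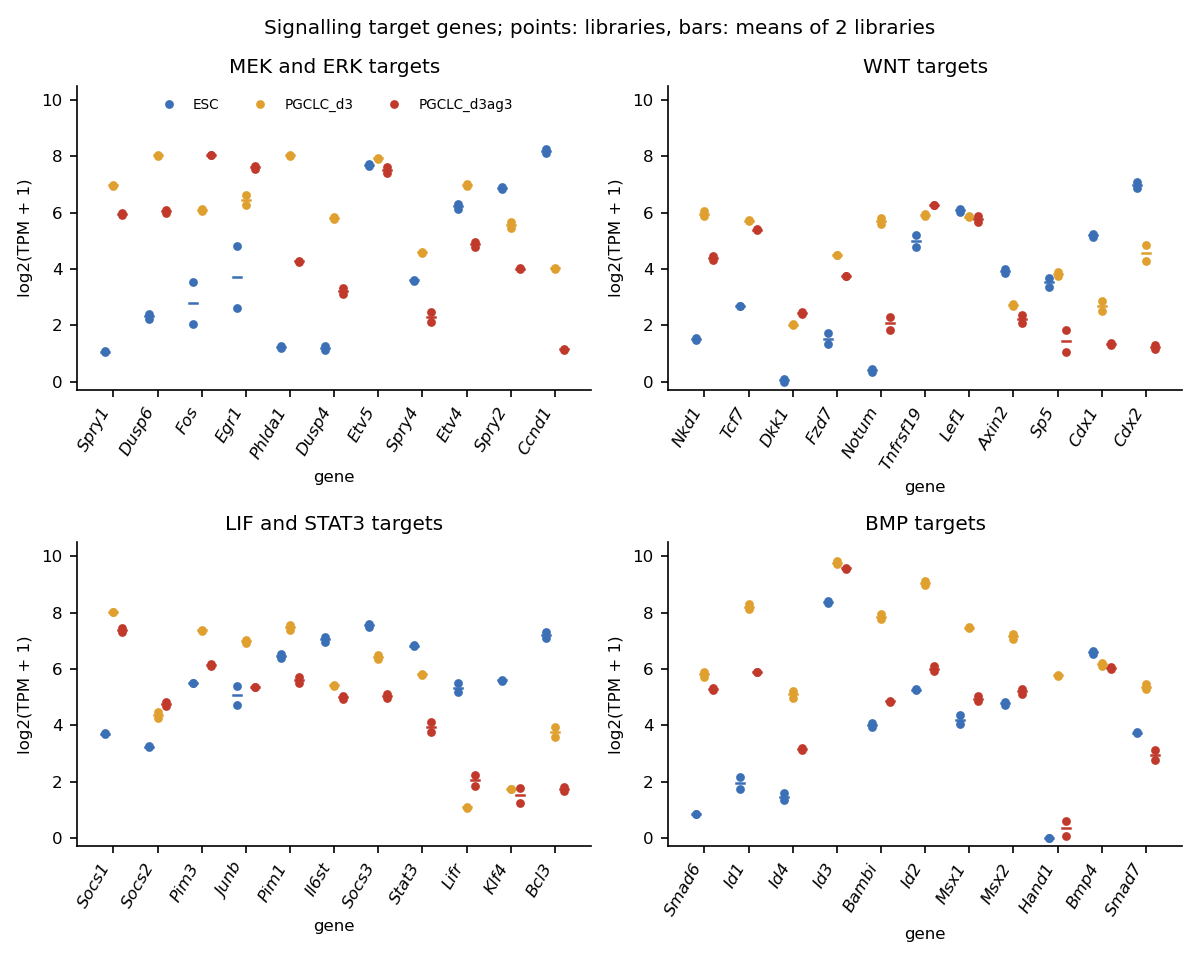
The panels show log2(TPM + 1) of 11 genes for each pathway, chosen for display from the lists, with a point for each library and a bar for the mean of 2 libraries in ESC, PGCLC_d3 and PGCLC_d3ag3. Spry1 and Dusp6 lie higher and Spry2 and Ccnd1 lower in PGCLC_d3ag3 than in ESC, and the BMP targets Id1 and Bambi peak at day 3.

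Retinoic acid genes were listed because retinoic acid has been linked to meiotic entry. They rose in 8 of 15 tested members and fell in 3, with a median of 0.55 (0.34 after quantile normalization). The receptor gene Rara was at 5.59, 5.52, 30.8 and 37.1, and Aldh1a2, an enzyme that makes retinoic acid, at 1.28, 0.936, 8.41 and 9.97. Rec8 is known as a retinoic acid target in germ cells and is counted here as well. The catabolic gene Cyp26a1 was at 0, 0, 2.46 and 0.671, with PGCLC_d3ag3 replicates that differed. The falls included Aldh1a1 and Rxra, both at -0.73. Aldh1a2 is also a gene of the gonadal soma, whose other markers are given above.

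Genes of the primitive streak and mesoderm had 8 falls and 4 rises among 15 tested members, with a median of -0.42 (-0.58 after quantile normalization). Eomes, a T-box factor, was at 27.1, 27.1, 0.254 and 0.342, and Nkx1-2 at 24.3, 23.5, 2.83 and 4.61. The 4 rises were of Snai2, Gsc, Fgf8 and Wnt3, with Gsc at 0.517, 0.227, 7.68 and 7.22 and Fgf8 at 0.326, 0.0792, 2.76 and 3.93. The day 3 means of Fgf8 and Tbxt were 105 and 58.0 TPM, above all 4 libraries compared here, while Cdx2 had a day 3 mean of 23.3, below its ESC level.

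Imprinted genes, which are expressed from 1 parental copy and lose their marks in germ cells, were balanced at 10 higher and 10 lower of 27 tested, with a median of 0.10. Peg3 (8.55, 10.9, 64.8 and 59.5), Ndn (4.64, 6.13, 35.6 and 31.9), Cd81 and Ascl2 had the largest rises. Plagl1 (13.6, 16.2, 0.296 and 0.592), Nnat (65.4, 68.6, 7.5 and 8.9), Mest (172, 193, 38.9 and 37.9) and Sgce had the largest falls. The maternally expressed inhibitor gene Cdkn1c rose from 0.911 and 0.666 to 3.36 and 3.95. Levels per gene do not show which parental copy was read.

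Antigen presentation genes moved in both directions. The immunoproteasome genes Psmb8 and Psmb9, the peptide transporter gene Tap2 and the proteasome activator gene Psme1 had rises: Psmb8 was at 0, 0.0807, 92.2 and 102, Psmb9 at 2.87, 3.28, 102 and 95.9, Tap2 at 0.247, 0.433, 17.4 and 17.3, and Psme1 at 149, 155, 890 and 823. The light chain of class I molecules, B2m, fell from 201 and 212 to 16.8 and 14.9, and the class I gene RT1-CE1 from 26.1 and 22.6 to 3.48 and 2.93. Of 18 tested members 8 rose and 6 fell, with a median of 0.06. RT1-M3-1 rose (0.0898, 0.394, 20.1 and 23.2), and since the RT1 genes are close relatives their reads may be shared between members. Psmb10, the remaining immunoproteasome catalytic subunit, fell from 36.8 and 36.3 to 4.42 and 4.34, so these subunits did not move together.

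Interferon response genes rose in 14 of 20 tested members and fell in 4, with a median of 0.75. Mx2 was at 0.874, 0.639, 17.2 and 18, the ubiquitin-like gene Isg15 at 14.3, 16.4, 99.1 and 78, and the RNA sensor gene Ddx58, which encodes RIG-I, at 6.79, 7.74, 42.7 and 43.3. Day 3 means were higher for each, at 42.3, 150 and 61.2 TPM. The classical inducible genes Ifit1, Ifit3 and Rsad2 were at or near 0 in all 4 libraries, below 0.1 TPM. Gbp2, Ifitm1, Irf9 and Ifitm3 fell, Ifitm1 from 2335 and 2273 to 291 and 309, and Ifitm genes are close relatives whose reads may be shared.

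Energy metabolism genes shifted by pathway. Glycolysis genes fell in 16 of 23 tested members and rose in 4, with a median of -0.73. Pkm, the last enzyme of the pathway, was at 1992, 1935, 461 and 466, lactate dehydrogenase Ldha at 2215, 2171, 719 and 752, Eno1 at 4193, 4184, 1426 and 1552, and the first enzyme Hk2 at 115, 131, 26.8 and 32.3. Both libraries of a group were close in each. Aldoa was at 1923, 1832, 1856 and 1943 with no call, so not every step was lower. The rises were of Aldoc, Pfkm, Slc16a1 and Eno2, with Eno2 below 1 TPM, and Eno2 lost its call without ESC replicate 1 (0.46, adjusted p = 0.0634 from limma) and was at 0.39 without PGCLC_d3ag3 replicate 2.

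Nuclear genes of oxidative phosphorylation rose in 24 of 41 tested members and fell in 10, with a median of 0.27, and all differences lay between -1.01 and 0.97. Subunits of complex I such as Ndufs1 (192, 211, 395 and 394) and Ndufb8 (426, 421, 875 and 740) and of complex II such as Sdhb (355, 356, 666 and 686) had the largest rises. Atp5pb, a stalk subunit of the ATP synthase, had the largest fall, from 964 and 1024 to 489 and 499. Mitochondrially encoded genes held 3.00% and 3.29% of the TPM in ESC and 4.25% and 4.54% in PGCLC_d3ag3. Among these 13 genes ND5 and COX3 had the largest rises, at 1.07 and 0.95, and the other rises were of 0.27 to 0.74. COX1 (0.18), ATP8 (0.09), ND3 (0.15) and ND4L (-0.01) were not called. The mitochondrial share is also read as a sign of RNA quality, and its part in these values was not tested.

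Genes of serine, threonine and one-carbon metabolism, which feed nucleotide and methyl group supply, fell in 16 of 22 tested members and rose in 4, with a median of -0.74. Threonine dehydrogenase (Tdh), on which rodent stem cells depend, was at 679, 687, 10.6 and 9.71. The glycine cleavage genes Gldc (71.1, 78.5, 14.3 and 15.3), Amt (327, 310, 105 and 114) and Gcsh (395, 373, 141 and 145) fell together. The rises included Phgdh, the first enzyme of serine synthesis (61, 61.5, 154 and 168), the cytosolic Shmt1 (86.3, 85.5, 223 and 217) and Mtr. Within the mitochondrial arm, Shmt2, Mthfd2, Mthfd1l and Aldh1l2 fell.

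Targets of ATF4, the transcription factor of the amino acid response, were lower in 17 of 19 tested members, with Ddit4 as the only rise and a median of -1.78. Atf4 itself was at 676, 625, 198 and 180, asparagine synthetase Asns at 707, 749, 64 and 73.7, and the amino acid transporter genes Slc7a5 at 580, 560, 115 and 131 and Slc7a3 at 417, 403, 26.8 and 32.6. Nupr1 had the largest fall, from 166 and 136 to 6.09 and 4.84. Genes for tRNA synthetases fell less, for example Aars1 by 0.99 and Nars1 by 0.73. Day 3 cells were between the groups for Atf4 and Asns, with means of 424 and 317 TPM.

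Cholesterol synthesis genes had 12 rises and 7 falls among 25 tested, with a median of 0.16. The squalene epoxidase gene Sqle (95.7, 88.4, 185 and 200), Msmo1 (205, 187, 381 and 419) and Hsd17b7 rose by 1.03 to 1.55. Acat2, Sc5d and Cyp51 fell by 0.97 to 1.11.

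**Figure D5:**
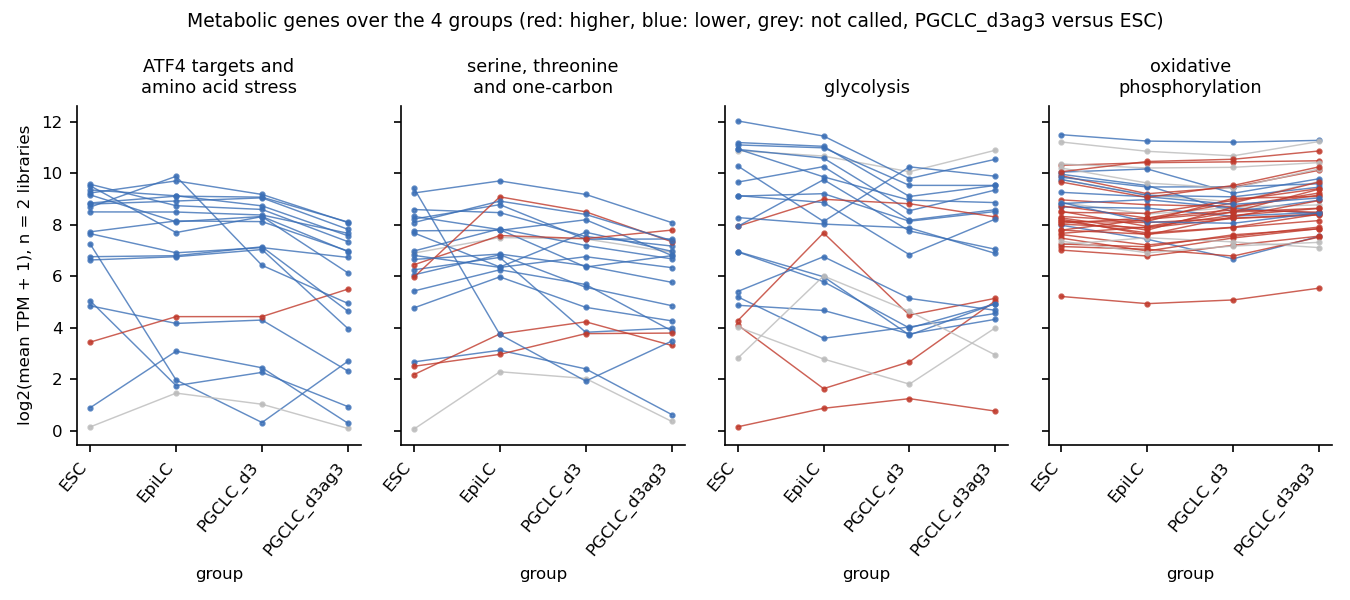
Each line is a tested gene, drawn as log2(mean TPM + 1) of 2 libraries over ESC, EpiLC, PGCLC_d3 and PGCLC_d3ag3 and coloured by its call in PGCLC_d3ag3 against ESC. Of the lines for ATF4 targets 17 of 19 end lower than they start, while 24 of 41 oxidative phosphorylation lines end higher by a small step.

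Cell division genes of G2 and mitosis stayed at high levels in both groups. Of 23 tested members 10 rose and 9 fell, with a median of 0.07. Mki67 was at 61.2, 69.8, 50.3 and 40.8, Cdk1 at 444, 419, 259 and 260, and Ccnb1 at 544, 569, 555 and 619 with no call. The centromere histone gene Cenpa had the largest rise, from 46.1 and 43.8 to 231 and 250. Birc5 was at 178, 164, 399 and 258, and its difference of 0.90 was 0.59 without PGCLC_d3ag3 replicate 1.

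G1 regulators fell in 11 of 21 tested members and rose in 6, with a median of -0.20. After Ccnd1, the inhibitor genes Cdkn2c (5.76, 5.44, 0.424 and 0.246) and Cdkn1a (12.4, 18.4, 2.47 and 2.25) and the cyclin gene Ccne1 (121, 112, 31.4 and 35.2) had the largest falls. Cdk6, a partner of the D cyclins, rose from 0.074 and 0.0541 to 3.75 and 4.26. Ccnd2 was at 0.847, 1.55, 2.69 and 3.88, and lost its call without ESC replicate 1 (0.74, adjusted p = 0.0542 from limma). Its day 3 mean was 333 TPM, and Ccnd3 was the most abundant D cyclin after aggregation, at 152 and 159 against 179 and 179 in ESC.

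p53 target genes were lower in 10 of 19 tested members and higher in 6, with a median of -0.43. Ccng1 (157, 274, 30.4 and 36.5) and Phlda3 (84.9, 123, 6.78 and 10.9) had the largest falls. The ESC libraries differed by more than the PGCLC_d3ag3 libraries for several targets, Ccng1 among them, with replicate 2 the higher. Btg2 (0.714, 0.661, 48.4 and 51.8) and Perp (15.7, 21.1, 198 and 198) rose.

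Immediate early genes are also raised by the dissociation of cells for sorting, and both PGCLC groups were sorted while no label gives a sort for ESC. Of 18 tested members 9 rose and 5 fell, with a median of 0.42. Besides Fos and Egr1, Dusp1 (1.5, 1.19, 28.3 and 23.4) and Fosb (1.17, 0.147, 5.92 and 7.32) rose. Jun (7.74, 4.22, 7.58 and 5.65) and Junb (41.3, 25.6, 39.7 and 40.4) had overlapping groups, and Atf3 fell from 38.3 and 25.6 to 0.945 and 0.863. The heat shock genes Hspa1b, Dnajb1 and Hsp90aa1 fell. Fos and Egr1 are also counted among the ERK targets above, and the part of the sort in their levels was not tested.

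Adhesion and migration genes moved in both directions. E-cadherin (Cdh1) fell from 442 and 513 to 59.1 and 61.9, whereas P-cadherin (Cdh3) was at 0.0666, 0.0733, 70 and 71.6. The connexin gene Gja1 fell from 358 and 391 to 2.55 and 2.45. Integrin genes were lower for Itga6 (8.77, 10.4, 0.763 and 0.739) and Itgb5 and higher for Itga1. Of 24 tested members 13 rose and 9 fell, with a median of 0.30. Epcam, an epithelial surface molecule also used to sort germ cells, was high in both groups, at 590, 574, 688 and 701.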

How the data were processed

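The submitters' processing notes name bcl2fastq 2.20, cutadapt 1.1.6, HISAT2 2.1.0, featureCounts (Subread 1.6.5) and build rn7. The authors deposited log2(TPM+1) for each gene in each library. Per the labels' protocols, libraries were made with SMART-Seq v4 and KAPA Hyper Prep kits. Groups and replicates come from the sample titles. The 11066 rows with blank names were left out.

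All 4 groups were fitted with limma 3.58.1 in R 4.3.3 (trended, 2-sided, 4 residual and a median of 5.46 prior degrees of freedom). The median SD after limma's empirical Bayes moderation was 0.117 on the log2 scale. The fit and the depth estimate were tested on simulated data. The 34 gene lists and the genes compared were chosen with earlier results of these data known. Named genes are genes listed by hand, the 12 largest rises and falls (at least 10 TPM in the higher group, no clone-style symbol), the 4 largest in each list and direction, members of counts of 5 or fewer, and the 5 highest levels. Other genes, and library values behind counts, were named after their values were seen. Tested alternatives were filters, pseudocounts, rescaling, fewer groups, a replicate block, no trend, a minimum change and leaving out each library. List members Gcna, Tcl1, Dppa2, Dnmt3c, Suv39h1, Hoxa10, H19, Meg3, Cars1 and Hspa1a were not analysed here. Some genes that the naming rule selects are not reported here.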

Additional observations from a re-analysis of the deposited data

How the results depend on the processing

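Over 13 alternatives, the fewest calls were 8742 of 10809 tested genes, with the filter of 5 TPM. The most were 11508 of 19132 tested genes, without a filter on low values. The numbers tested differ, so these counts do not compare directly with the 10488 of 13571 in the main fit. Where both libraries of ESC and of PGCLC_d3ag3 were kept, 52.1% to 55.4% of the calls were higher. With a minimum log2 change of 1 added, 2497 genes were higher and 2164 lower, by construction. Without 1 library at a time, 5282 to 5676 genes were higher and 4252 to 4698 lower. Replicate numbers did not pair the samples (correlations of deviations of -0.04 to 0.07), and with a replicate block 5780 genes were higher and 4737 lower. Of 277 genes followed, 268 kept their direction and side of the threshold in each of the 13 alternatives that tested them, and 261 of the 277 were tested with the filter of 5 TPM. Most of the 277 genes were chosen as called genes with large differences. That they stayed called was largely fixed by this choice and says little about other genes. Of all 10488 genes called in the main fit, 9878 were also called in the fit of only the 4 compared libraries. After quantile normalization 10188 of them were called. ATP6 was no longer called after quantile normalization (0.23, adjusted p = 0.0566 from limma) and Dcn with a pseudocount of 5 (0.27, adjusted p = 0.0962). The other 7 are Ccnd2, Eno2, Fut4, Mbd3, Piwil4, Sox2 and Syce2, with values given above. The median of all tested genes was 0.088, and 0.041 after median-of-ratios rescaling and 0.035 after quantile normalization. The histone lysine methylation median turned to -0.01 under the former, and 1 DNA methylation gene was then higher in place of 2. Quantile normalization moved the list medians of gonadal somatic genes to 0.53 and of fibroblast and feeder genes to -0.75. Causes were not tested. Depth is known only relative to another library, so no counting error is given for any level.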

Other observations

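The genes in these paragraphs were chosen after their values were seen, and they are given as descriptions. Receptors and ligands of the GDNF family, which signal through RET, were higher in PGCLC_d3ag3 than in ESC in 4 of 5 tested genes of 9 in the table. The receptor gene Ret was at 0.077 and 0.127 TPM in ESC and 39.3 and 40 in PGCLC_d3ag3, its co-receptor gene Gfra3 at 0.527, 1.11, 87.2 and 90.1, and the ligand gene Nrtn at 2.45, 2.31, 91.9 and 90.8. The usual co-receptor of GDNF itself, Gfra1, stayed below 1 TPM in all 4 libraries, at 0.254 and 0.244 in ESC. Ret and Nrtn were already at means of 38.0 and 130 TPM at day 3. Of the FGF receptor genes, Fgfr2 (0.408, 0.199, 56.1 and 55.8) and Fgfr3 (1.61, 1.64, 34.6 and 32.7) rose beside Fgfr1, which was at 123, 137, 113 and 142 with no call, and Fgfr4 fell (1.1, 1.16, 0.348 and 0.191). The sex determination factor gene Dmrt1 was listed at 0 in ESC and at 25.6 and 33.8 in PGCLC_d3ag3. Of the X-linked RHOX homeobox genes, Rhox13 was at 0.291, 0.708, 53.3 and 50.3, with 0 in both day 3 libraries, and Rhox5 at 456, 399, 325 and 318.

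Other families held genes that were abundant in stem cells and low after aggregation. The transcription factor genes Mitf (66.9, 77.5, 0.746 and 0.537) and Tfeb (70.3, 69.9, 1.19 and 0.917), regulators of lysosomes, fell, and their relative Tfe3 fell from 42.9 and 43.2 to 16.9 and 15.2. The metallothionein genes Mt2A (3786, 3394, 58.5 and 54.3), Mt1m and Mt1 fell, while Mt3 rose by 0.80. The maternal factor genes Ooep (970, 948, 8.31 and 12.2) and Khdc3 (80.3, 78.5, 0.345 and 0.567) fell, while Tle6 (1.02, 0.923, 9.55 and 10.7) and Zbed3 (15.2, 15.7, 19.9 and 22.9) of the same complex rose. Beta-tubulin genes differed by member, with Tubb2a (298, 278, 3.48 and 3.17), Tubb2b and Tubb6 (587, 624, 56.2 and 55.8) lower and Tubb5, the most abundant, higher by 0.26. Tubb3 and Tubb4b also fell, Tubb4b from 1140 and 1103 to 766 and 752, and Tubb4a rose.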
